A study of Mus musculus with 8 samples.

Results

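The mRNAs of 10 heat shock chaperones were followed in primary mouse glomerular mesangial cells (MMC), the contractile cells that hold the capillary tuft of the kidney glomerulus together. The genes were taken by symbol from the 24639 gene entries of the deposited count files, and all 10 were present. They were grouped by what their products are known for. The inducible group held 6 genes, Hspa1a, Hspa1b, Hsph1, Dnajb1, Hspb1 and Hsp90aa1. The constitutive cytosolic group held Hspa8 and Hsp90ab1, and the mitochondrial group held the chaperonin pair Hspd1 and Hspe1. The cells came from C57BL/6J mice, either wild type (WT) or homozygous for a short CRISPR-Cas9 nickase deletion at miR-379 on chromosome 12 (miR-379KO), and were grown without treatment in RPMI medium with foetal bovine serum. No heat shock of the cultures is described. For each genotype there were 2 total RNA libraries (A and B), made from poly(A) RNA with strand kept. There were also 2 libraries (A and B) of RNA recovered with an antibody to AGO2 (AGO2-IP) from lysates of cells cross-linked by ultraviolet light. AGO2 is the protein in which microRNAs sit while they pair with mRNAs. The paper calls the AGO2-IP samples A and B of each genotype independent. Neither it nor the labels say whether a letter marks a culture or an animal. The p-values below thus measure only the spread between these samples, which may be technical.

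Heat shock proteins bind unfolded polypeptides and either hold them, refold them or pass them on. In the HSP70 cycle, J proteins such as DNAJB1 deliver the client and stimulate ATP hydrolysis, and HSP110 proteins such as HSPH1 exchange the nucleotide. HSP90 proteins finish the folding of kinases and steroid receptors, the small heat shock protein HSPB1 keeps damaged proteins from aggregating, and HSP60 (Hspd1) with its lid HSP10 (Hspe1) folds proteins in the mitochondrial matrix. On heat or proteotoxic stress the transcription factor HSF1 is freed from chaperones, forms a trimer and binds heat shock elements, which are alternating inverted GAA units in promoters. Hspa1a and Hspa1b are the classical inducible HSP70 genes, while Hspa8 encodes the HSP70 that resting cells use.

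Promoter sequences are given here because heat shock elements, to which HSF1 binds, lie in promoters. Windows of promoter sequence (RefSeq, build GRCm38.p6, the same assembly as the mm10 of the counts) were at hand for 7 of the 10 genes. Hsp90aa1, Hspa8 and Hsp90ab1 had no window, so no constitutive cytosolic gene was covered. The letters GAANNTTC or TTCNNGAA, each of which reads the same on both strands, mark a pair of adjacent inverted units. Such a pair was found in the windows of 6 of these 7 genes, all but Dnajb1, whereas 17.0% of 27026 genes with a window had one. A run of 3 alternating units was found for Hsph1, Hspd1 and Hspe1, against 0.662% of all genes. That of Hsph1 lies just past the start site, within the transcript, and is not printed. Capitals mark the pairs in the stretches just upstream of the start sites, printed 5′ to 3′ in the direction of transcription. The Hspa1a stretch is chr17:34972157-34972306 on the minus strand, the Hspa1b stretch is chr17:34959239-34959388 on the minus strand, the Hspb1 stretch is chr5:135887769-135887918 on the plus strand, and the Hsph1 stretch is chr5:149636316-149636395 on the minus strand. The last sequence is the whole of chr1:55087933-55088147 on the plus strand, the 215 bases between a start site of Hspd1 (transcribed leftward) and that of Hspe1 (transcribed rightward).
Hspa1a: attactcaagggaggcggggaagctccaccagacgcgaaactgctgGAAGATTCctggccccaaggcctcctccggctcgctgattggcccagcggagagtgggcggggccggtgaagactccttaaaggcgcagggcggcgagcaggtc
Hspa1b: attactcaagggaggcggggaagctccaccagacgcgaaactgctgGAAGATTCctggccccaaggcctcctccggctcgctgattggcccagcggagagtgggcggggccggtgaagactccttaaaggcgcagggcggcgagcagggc
Hspb1: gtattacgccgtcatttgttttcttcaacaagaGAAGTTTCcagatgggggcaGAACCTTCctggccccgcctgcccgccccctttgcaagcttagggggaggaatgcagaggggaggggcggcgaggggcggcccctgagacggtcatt
Hsph1: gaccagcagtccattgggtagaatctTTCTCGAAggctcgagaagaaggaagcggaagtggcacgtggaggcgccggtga
Hspd1 and Hspe1: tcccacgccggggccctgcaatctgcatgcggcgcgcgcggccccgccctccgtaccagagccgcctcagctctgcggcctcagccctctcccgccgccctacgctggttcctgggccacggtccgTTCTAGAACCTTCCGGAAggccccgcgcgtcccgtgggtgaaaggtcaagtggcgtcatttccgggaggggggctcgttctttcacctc
The pair starts at position -104 from the start site in both Hspa1a and Hspa1b, at -117 and -97 in Hspb1 and at -54 in Hsph1, as counted from the start site used for the printed stretch, since the annotated gene reaches farther upstream. The mitochondrial pair share a single run whose pairs start at -89, -84 and -79 as counted from Hspe1. Hspa1a and Hspa1b are near-identical duplicates, and 247 of the 250 bases upstream of their start sites were identical (98.8%). A letter match is a description of the sequence and not a measured binding site.

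For the microRNA removed in the knockout, miR-379-5p (chr12:109709065-109709085, plus strand), the mature sequence is printed with the seed, bases 2 to 8, in capitals, since the seed is the part that pairs with target mRNAs.
miR-379-5p: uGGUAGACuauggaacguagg
The DNA letters complementary to this seed are GTCTACC. They occurred in the 3′-UTR of 1 of the 10 chaperones, Dnajb1, once in 1834 bases, at chr8:83612564-83612570 on the plus strand. Of 20066 genes with an annotated 3′-UTR, 4.62% had at least 1 such match. The Dnajb1 site is shown with the match in capitals.
Dnajb1 site: agcctatgtaaGTCTACCtaagagctgct
The deletion itself could not be checked well from these counts. The Mir379 entry held 0 counts in all 4 total RNA libraries, and in AGO2-IP it held 0 and 4 in the WT libraries against 1 and 0 in those of miR-379KO.

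Total RNA libraries held 17168230 to 22660743 counts in genes. The AGO2-IP libraries held 5587611 to 17095021, but 72.2% to 80.5% of these fell on the ribosomal RNA gene Rn45s and 6.28% to 8.74% on Lars2, so 1115782 to 1875037 counts were left for all other genes. Uniquely placed reads on no counted exon made up 46.6% and 49.7% in WT AGO2-IP and 73.4% and 76.4% in miR-379KO AGO2-IP. Counting was stranded, so these can include reads in introns or on the opposite strand of a gene as well as reads between genes. The mesangial label was checked against 12 markers, of which 10 in WT and 11 in miR-379KO had at least 10 counts in both total RNA libraries. Their summed level was 27050 to 27120 counts per 1000000 (CPM) in WT and 28900 to 31030 CPM in miR-379KO. Summed over 6 markers each, endothelial markers reached at most 2.17 CPM, macrophage markers 4.93 CPM and tubule markers 46.1 CPM in total RNA, and podocyte markers lay between 244 and 634 CPM. Of the podocyte markers, 4 in WT and 3 in miR-379KO also had at least 10 counts in both total RNA libraries. The endothelial, macrophage and tubule lists had at most 2 such markers in either genotype. In bulk samples, fewer cells of a type and less RNA per cell cannot be told apart.

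In total RNA the 10 mRNAs spanned more than 3 orders of magnitude, and the classical inducible HSP70 genes were the lowest. Levels were compared between genes as CPM, scaled by the trimmed mean of M values (TMM) within total RNA, per kilobase of exon. In WT cells the order of the means was Hspa8 (1083 ± 412, SD, n = 2), Hsp90ab1 (927 ± 157), Hspb1 (362 ± 121), Hsp90aa1 (277 ± 44.9), Hspd1 (129 ± 3.45), Hspe1 (99.0 ± 30.3), Hsph1 (24.7 ± 5.84), Dnajb1 (16.6 ± 1.22), Hspa1b (1.70 ± 0.155) and Hspa1a (0.428 ± 0.00281). Among neighbours in that order, Hspa8 and Hsp90ab1 overlapped between replicates, as did Hspb1 and Hsp90aa1, and the other neighbours did not. The order was the same in miR-379KO cells, where Hspd1 and Hspe1 were the only neighbours whose replicates overlapped. Of the counts on Hspa1a, Hspa1b and Hspa8 together, the inducible pair took 0.217% to 0.339% in the 4 total RNA libraries. Counts on these HSP70 genes thus lay almost wholly on Hspa8 in both genotypes.

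How much of each mRNA a read can be assigned to differs widely, which bears on every level given here. The authors' counting kept reads placed with confidence, and several of these genes have near-identical copies. Of the 51-base windows along the exons, 84.3% of those of Hspa8 and 83.8% of those of Hsp90aa1 had an exact copy elsewhere in the genome, on 8 and 7 chromosomes. The share was 71.9% for Hspb1, 63.8% for Hspa1a, 61.9% for Hspa1b, 54.1% for Hspd1, 46.2% for Hspe1 and 7.90% for Hsp90ab1, and it was 0.504% for Dnajb1 and 0 for Hsph1. The paralogs Hspa1a (chr17:34969359-34972156) and Hspa1b (chr17:34956429-34959238) lie side by side on the minus strand, and 1708 windows were shared between them. The other genes lie at chr9:40801276-40805202 (Hspa8), chr12:110691036-110696395 (Hsp90aa1), chr17:45567778-45573261 (Hsp90ab1), chr5:135887919-135889563 (Hspb1), chr5:149616843-149636498 (Hsph1), chr8:83608175-83612653 (Dnajb1), chr1:55077833-55088243 (Hspd1) and chr1:55088148-55091317 (Hspe1), and the mitochondrial pair overlap slightly on opposite strands, which the stranded counting keeps apart. Levels of Hspa8, Hsp90aa1, Hspb1 and the inducible HSP70 pair rest on the remaining windows, and the split between Hspa1a and Hspa1b is uncertain.

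The first comparison asked whether loss of miR-379 changed the chaperone mRNAs. None of the 10 passed in total RNA. Quasi-likelihood tests (edgeR, Benjamini-Hochberg adjusted p under 0.05) called 0% of 12321 genes, with 91 genes at an unadjusted p under 0.05 and 0 called by DESeq2 as well. Every chaperone had an adjusted p of 0.9997. Of the 10 fitted differences, 7 were positive, with a median log2 fold change of 0.20 against -0.0086 over all genes tested. The median was 0.0079 without WT A, 0.44 without WT B, 0.38 without miR-379KO A and 0.081 without miR-379KO B.

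Hspa1a had the largest difference. It stood at 1.19 and 1.20 CPM in WT A and B, from 20 and 22 counts, and at 2.96 and 2.35 CPM in miR-379KO A and B, from 68 and 40 counts. Both knockout libraries lay above both WT libraries, and the fitted log2 fold change was 1.14 ± 0.45 (SE), or 2.21-fold, with an unadjusted p of 0.0418 from edgeR and an adjusted p of 0.9997. It was the only chaperone past the cutoff of the study's methods (a 1.5-fold change with an unadjusted p under 0.05), which 0.682% of all genes tested passed. No chaperone passed it under DESeq2, with the replicate block, with a GC and length offset, or without WT A, miR-379KO A or miR-379KO B. Its near-identical neighbour Hspa1b stood at 4.47 and 5.09 CPM in WT and 5.0 and 4.46 CPM in miR-379KO (log2 fold change -0.014 ± 0.32), and its groups overlapped. Of the counts on both genes, Hspa1a took 21.1% (95% Wilson interval 14.1 to 30.3) and 19.1% (13.0 to 27.3) in WT and 37.2% (30.5 to 44.4) and 34.5% (26.5 to 43.5) in miR-379KO. Intervals of this kind cover counting error only. Summed over the counted reads of both genes, the pair stood at 5.67 and 6.29 CPM in WT and at 7.96 and 6.81 CPM in miR-379KO, again without overlap. Reads that fit both copies equally well were not counted, so this sum is not a total for the pair.

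Hspb1, the small heat shock protein, stood at 250 and 404 CPM in WT A and B and at 435 and 447 CPM in miR-379KO A and B (log2 fold change 0.43 ± 0.30, unadjusted p from edgeR 0.195). The WT libraries were farther apart from each other than WT B was from the knockout. The J protein gene Dnajb1, the one chaperone with a miR-379 seed match, stood at 50.6 and 56.2 CPM in WT and at 71.4 and 69.2 CPM in miR-379KO (log2 fold change 0.40 ± 0.20, unadjusted p from edgeR 0.0983). Here the replicates lay close together and the groups did not overlap, but the difference did not pass. Together with Hspa1a these made 3 of 10 chaperones whose genotypes did not overlap, all 3 higher in miR-379KO, while 9.89% of all genes tested were higher there without overlap.

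The remaining inducible genes showed smaller differences. Hsph1, the HSP110 nucleotide exchange factor, stood at 77.7 and 109 CPM in WT and at 86.8 and 107 CPM in miR-379KO (log2 fold change 0.053 ± 0.25). Hsp90aa1, the inducible cytosolic HSP90, stood at 880 and 699 CPM in WT and at 734 and 812 CPM in miR-379KO (-0.030 ± 0.26). In both genes the knockout libraries lay inside the range of the WT libraries, and neither difference was larger than its error.

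The constitutive and mitochondrial genes did not separate by genotype either. Hspa8 stood at 1666 and 2891 CPM in WT and at 2530 and 3055 CPM in miR-379KO (log2 fold change 0.29 ± 0.35), and Hsp90ab1, the constitutive HSP90, at 2046 and 2601 CPM in WT and at 2470 and 2943 CPM in miR-379KO (0.22 ± 0.29). Hspd1 stood at 329 and 341 CPM in WT and at 284 and 371 CPM in miR-379KO (-0.034 ± 0.25), and Hspe1 at 59.6 and 92.5 CPM in WT and at 67.5 and 104 CPM in miR-379KO (0.17 ± 0.32). The groups overlapped in all 4 genes. By group, the median log2 fold change was 0.22 for the inducible genes, 0.26 for the constitutive genes and 0.069 for the mitochondrial genes.

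**Figure D1:**
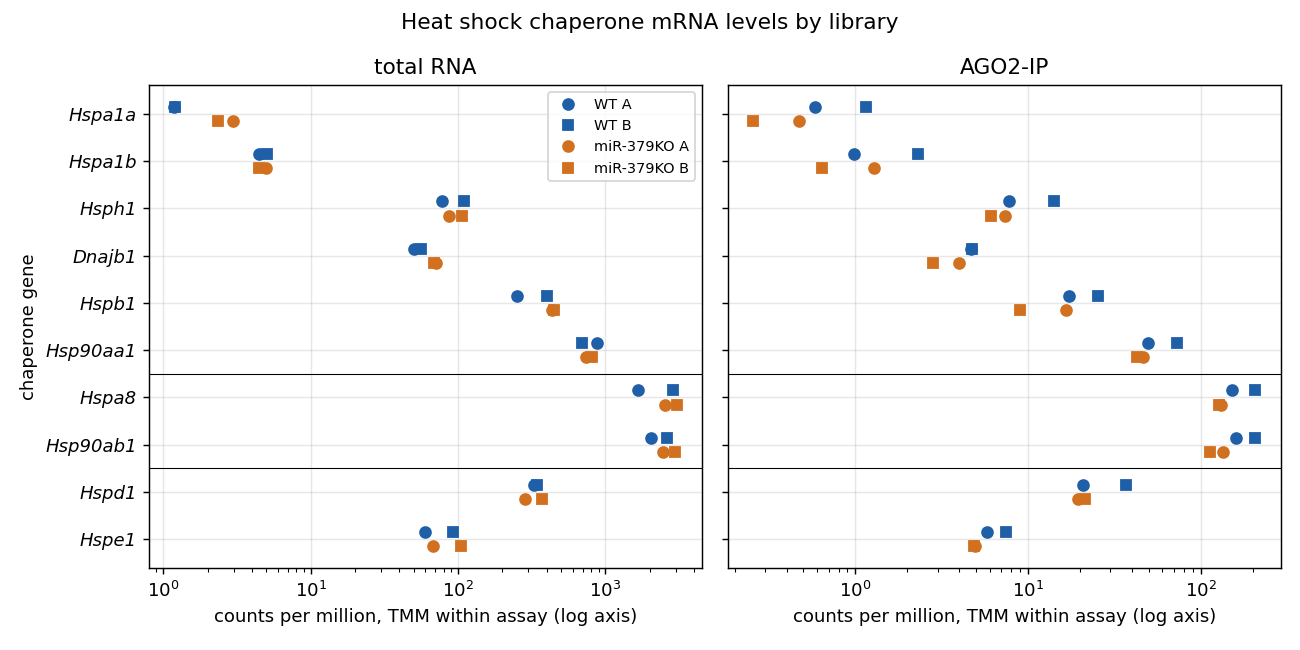
CPM (log axis, TMM-scaled within each assay) of the 10 chaperone genes in each library, with total RNA on the left and AGO2-IP on the right. Blue marks WT and orange marks miR-379KO, circles are replicate A and squares replicate B, and lines separate inducible, constitutive and mitochondrial genes. In total RNA the knockout lies above WT without overlap for Hspa1a, Dnajb1 and Hspb1, and in AGO2-IP most knockout points lie to the left of WT.

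Several chaperones differed widely between replicates, above all in WT, and so did genes at large. In WT the median absolute log2 ratio was 0.34 for the chaperones against 0.37 over 10721 genes. In miR-379KO it was 0.26 against 0.19. Between WT B and WT A the ratio of levels was 1.74 for Hspa8, 1.62 for Hspb1, 1.55 for Hspe1 and 1.40 for Hsph1, and it was 0.795 for Hsp90aa1. In all, 9 of 10 chaperones, all but Hsp90aa1, were higher in WT B, with a median log2 ratio of 0.26 against 0.00012 over 10721 genes, of which the middle 90% lay between -0.97 and 0.84. Between the knockout libraries 7 of 10 were higher in B, with a median of 0.20 against 0.013 over all genes. Within the HSP90 pair, Hsp90aa1 took 30.1% (95% Wilson interval 29.7 to 30.5) of the counts in WT A but 21.2% (20.9 to 21.5) in WT B, 22.9% (22.6 to 23.2) in miR-379KO A and 21.6% (21.3 to 22.0) in miR-379KO B. WT A was thus the library with the most inducible HSP90 relative to the constitutive form, and the other 3 lay close together. Within the mitochondrial pair, Hspe1 took 15.3% (14.5 to 16.2) in WT A, 21.3% (20.4 to 22.2) in WT B, 19.2% (18.4 to 20.1) in miR-379KO A and 21.9% (21.0 to 22.8) in miR-379KO B, and WT A was again the one apart. WT A also had the largest share of counts on Rn45s among total RNA libraries, 9.26% against 4.52% to 7.04%, whose part in these ratios was not tested.

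**Figure D2:**
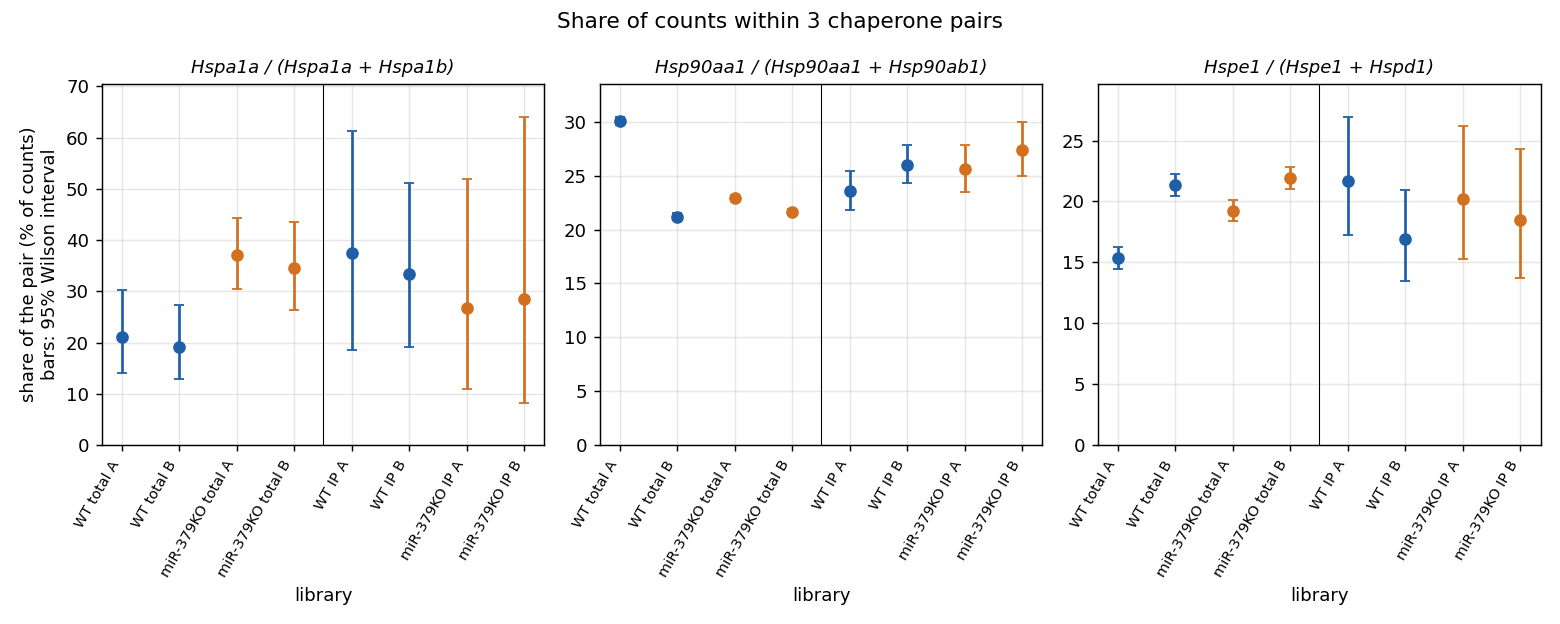
Share of counts taken by 1 gene of 3 chaperone pairs in each of the 8 libraries (percent, with 95% Wilson intervals for counting error, blue WT, orange miR-379KO, total RNA left of the line in each panel, AGO2-IP right). The Hspa1a share is higher in both knockout than in both WT total RNA libraries, with intervals that overlap in part, while in the HSP90 and the mitochondrial pair WT total RNA A stands apart from the other 3 total RNA libraries.

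To see which other genes followed the inducible chaperones across the 4 total RNA libraries, the centred log2 CPM of every gene averaging 50 counts or more was compared with the median profile of the inducible genes, which ran from -0.27 in WT A and -0.016 in WT B to 0.14 in miR-379KO A and 0.18 in miR-379KO B. The 5 nearest genes by Euclidean distance were Bcar1 (0.0378), a focal adhesion adaptor, Def8 (0.0416), Dda1 (0.0425), the immunoproteasome subunit gene Psmb10 (0.0468) and the retromer subunit gene Vps29 (0.0504). The inducible chaperones themselves lay farther from their own median, from 0.131 for Dnajb1 to 0.646 for Hspa1a. The other chaperones lay within that range, at 0.185 for Hsp90ab1, 0.417 for Hspa8, 0.454 for Hspd1 and 0.507 for Hspe1. The profile was thus not particular to the inducible genes. With 4 libraries this likeness is a description only, and the 6 inducible genes did not move as 1 block.

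The other genes of the chaperone system were examined as 71 genes in 8 lists, covering heat shock factors, other HSP70 and HSP110 proteins, J proteins, HSP70 and HSP90 cochaperones, small heat shock proteins, the cytosolic chaperonin TRiC and other mitochondrial chaperones. In total RNA 65 were tested and none passed, with 45 positive and 20 negative differences and a median log2 fold change of 0.078. The smallest unadjusted p among the positive differences was that of Cryab, the small heat shock protein alpha B-crystallin, with counts of 5193 and 5804 for WT against 10210 and 6197 for miR-379KO (log2 fold change 0.36 ± 0.24, adjusted p from edgeR 0.9997). Among the negative ones it was that of Dnajc3, a J protein of the endoplasmic reticulum (-0.30 ± 0.30, with the same adjusted p). All 8 TRiC subunits had positive differences, between 0.14 and 0.30, and none passed. A difference between genotypes was not detectable in any of these lists with 2 libraries a group.

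The next comparison asked whether chaperone mRNA recovered with AGO2 differed between genotypes. Every one of the 9 chaperones tested had a lower fitted level in miR-379KO AGO2-IP, but none passed the adjusted threshold, while 30.9% of 13505 genes passed (2887 higher and 1286 lower). The log2 fold changes lay between -0.73 and -0.44 with a median of -0.50, against -0.012 over all genes tested. Hspa1a, with counts of 6 and 10 for WT against 4 and 2 for miR-379KO, was too low to be tested. DESeq2 called none of the 9 and 838 genes in all. With a mean of 50 counts required, the median of the 7 chaperones left was -0.11 against -0.0019 over all genes, and with no filter that of all 10 was -0.75 against 0.36.

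Hspb1 came nearest, at 17.3 and 25.3 CPM in WT A and B (176 and 219 counts) and 16.5 and 8.94 CPM in miR-379KO A and B (141 and 70 counts). Both knockout libraries lay below both WT libraries, with miR-379KO B far below and miR-379KO A just below WT A (log2 fold change -0.73 ± 0.27, adjusted p from edgeR 0.0513). With the replicate letter as a block its adjusted p was 0.0394. Over the other settings its adjusted p ran from 0.00172 without miR-379KO A to 0.722 with an offset for GC content and length, where its fold change shrank to -0.14. Hsph1 stood at 7.75 and 14.2 CPM in WT and 7.39 and 6.13 CPM in miR-379KO (-0.69 ± 0.28, adjusted p from edgeR 0.0655). These were the 2 chaperones past the study's cutoff in the lower direction, which 13.3% of all genes tested passed. The number past it was 0 without WT B, without miR-379KO B, with a mean of 50 counts required or with TMM factors from abundant genes, 7 without WT A and 8 with no filter.

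Dnajb1, with the seed match, stood at 4.71 and 4.74 CPM in WT AGO2-IP (48 and 41 counts) and at 3.99 and 2.81 CPM in miR-379KO AGO2-IP (34 and 22 counts), so that the groups did not overlap (log2 fold change -0.47 ± 0.31, adjusted p from edgeR 0.251). Its fold change lay inside the range of the chaperones without a match. Hspa1b, with counts of 10 and 20 for WT against 11 and 5 for miR-379KO, overlapped between genotypes (-0.71 ± 0.51, adjusted p from edgeR 0.303). Hsp90aa1 stood at 49.5 and 73.1 CPM in WT and at 46.6 and 42.8 CPM in miR-379KO (-0.45 ± 0.26, adjusted p from edgeR 0.178).

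Among the constitutive genes, Hspa8 stood at 151 and 207 CPM in WT and at 132 and 128 CPM in miR-379KO (-0.46 ± 0.28), and Hsp90ab1 at 160 and 208 CPM in WT and at 135 and 114 CPM in miR-379KO (-0.57 ± 0.28, adjusted p from edgeR 0.127). Of the mitochondrial pair, Hspd1 stood at 20.9 and 37.0 CPM in WT and at 19.5 and 21.5 CPM in miR-379KO (-0.50 ± 0.26), and Hspe1 at 5.78 and 7.52 CPM in WT and at 4.93 and 4.86 CPM in miR-379KO (-0.44 ± 0.27). The genotypes overlapped in Hspd1 and not in the other 3. In all, 7 of the 9 chaperones tested had genotypes that did not overlap, all lower in miR-379KO, beside 32.2% of all genes tested.

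These negative differences were of the size seen in other abundant mRNAs. Among the 3653 tested genes that averaged 1000 or more counts in total RNA, a class described after the data were seen, the median log2 fold change in AGO2-IP was -0.45 and 90.5% of genes were negative, and the 8 chaperones in the class had a median of -0.48. Of that class 963 genes (26.4%) passed as lower and 7 as higher, and none of the 8 chaperones passed. The replicates also spread widely for the chaperones. All 10 were higher in WT B than in WT A, with a median log2 ratio of 0.55 against 0.063 over 5386 genes, and 9 of 10 were lower in miR-379KO B than in A. Without WT A the median of the chaperones was -0.81 and 3 of 9 passed (Hsph1, Hspb1 and Hspd1) beside 22.2% of all genes, and without WT B it was -0.27 and none passed beside 15.6%. Without miR-379KO A it was -0.79 with 2 of 10 past the threshold (Hsph1 and Hspb1) beside 21.3%, and without miR-379KO B it was -0.45 with none beside 6.42%. The summed mesangial markers stood at 9368 to 10550 CPM in WT AGO2-IP and at 3848 to 4890 CPM in miR-379KO AGO2-IP. They and the share of reads on no counted exon given above moved with genotype in the same libraries. Their part in these differences was not tested.

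**Figure D3:**
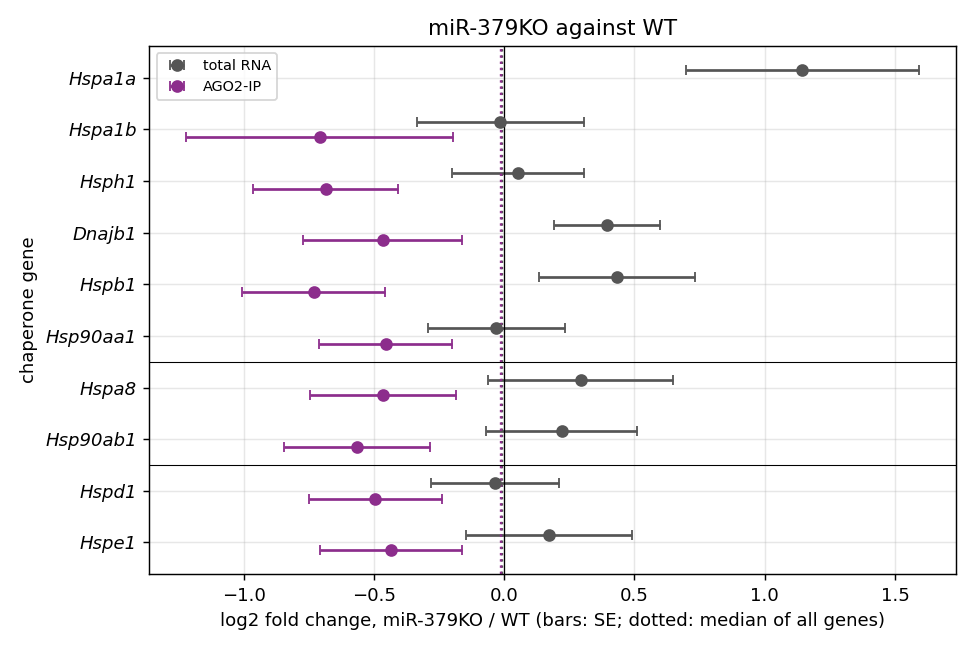
Log2 fold change of miR-379KO against WT for each chaperone gene in total RNA (grey) and AGO2-IP (purple), with standard errors, and dotted lines at the median over all genes tested, which lie at -0.0086 in total RNA and -0.012 in AGO2-IP. Total RNA values scatter from -0.034 to 1.14, and the 9 AGO2-IP values lie between -0.73 and -0.44.

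In the wider chaperone system, 67 of the 71 genes were tested in AGO2-IP. Of these, 12 fell, 1 rose and 54 did not pass, with a median log2 fold change of -0.40. Of all genes tested, 9.52% were called lower and 21.4% higher. Among genes averaging 1000 or more counts in total RNA, the share called lower was 26.4%. The 67 genes were not split by level. Those that fell furthest were Lonp1, the mitochondrial matrix protease (counts of 135 and 171 for WT against 78 and 57 for miR-379KO, -0.997 ± 0.25, adjusted p from edgeR 0.00471), Cdc37, the HSP90 cochaperone for kinases (161 and 158 against 88 and 54, -0.98 ± 0.24, 0.0045), and Hspa2, an HSP70 known from the testis (65 and 65 against 38 and 27, -0.80 ± 0.28, 0.032). The gene that rose was Hsf2bp, which encodes a meiotic binding partner of HSF2, with counts of 5 and 1 for WT against 10 and 14 for miR-379KO (2.16 ± 0.55, 0.00582). By list, the genes that fell were 3 of 8 HSP70 cochaperones, 2 of 13 HSP90 cochaperones, 2 of 8 TRiC subunits, 2 of 8 other mitochondrial chaperones, 1 of 13 J proteins, 1 of 8 other HSP70 and HSP110 genes and 1 of 5 heat shock factors and regulators.

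An interaction term fitted to all 8 libraries asked whether the genotype difference in AGO2-IP went beyond that in total RNA. The 10 interaction terms were negative, between -2.59 for Hspa1a and -0.65 for Hsp90aa1, with a median of -0.94 against 0.010 over all genes, and none passed. edgeR called 0% of 17429 genes, with 2733 genes at an unadjusted p under 0.05, and DESeq2 called 120 genes but no chaperone. At the study's cutoff 5 of 10 chaperones were lower, beside 10.9% of all genes tested. The count was 0 without WT AGO2-IP B, without miR-379KO AGO2-IP B and with a mean of 50 counts required, and 9 with a GC and length offset. The 5 were Hspa1a (-2.59 ± 0.89), Hspb1 (-1.35 ± 0.49), Dnajb1 (-1.07 ± 0.38), Hsp90ab1 (-0.98 ± 0.45) and Hsph1 (-0.94 ± 0.44), with adjusted p from edgeR between 0.246 and 0.315. The 3655 genes averaging 1000 or more counts in total RNA had a median interaction of -0.68, and 94.0% of them were negative, while the 8 chaperones in that class had a median of -0.94. WT total RNA B decided part of this. Without it 5 chaperones passed the adjusted threshold (Hsph1, Dnajb1, Hspb1, Hspa8 and Hspe1), as did 8.57% of all genes, and the median was -1.31, whereas without WT AGO2-IP B the median was -0.39 and Hspa1b and Hspd1 were both at 0.071. Among the 70 other chaperone-system genes tested none passed, and Cdc37 had the smallest unadjusted p among negative terms (-1.42 ± 0.43, adjusted p from edgeR 0.235). Among positive terms it was that of Hspa1l, an HSP70 gene known from the testis, whose value of 7.31 ± 3.06 rests on 5 counts in 1 AGO2-IP library and 0 in the other 3.

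The last comparisons set AGO2-IP against total RNA within each genotype, to describe how far each chaperone mRNA was recovered with AGO2. Assay and library protocol changed together, so their parts in all of these values cannot be told apart. For AGO2-IP the paper gives the longer paired-end reads, and for total RNA those or shorter single-end ones. Read length bears on how much of a gene with copies elsewhere can be counted. On a CPM scale common to all 8 libraries (TMM over both assays), most chaperone mRNAs were under-represented in AGO2-IP, while the median gene was higher there by 0.49 (log2) in WT and 0.47 in miR-379KO. The sign of that median depends on the processing, since it was -0.28 and -0.58 with a GC and length offset and -0.050 and -0.034 with a mean of 50 counts required, where the chaperone medians were -1.55 and -2.71 and then -0.93 and -1.33. In WT, 7 of 10 chaperones were at least 2-fold lower with an adjusted p under 0.05, beside 7.33% of all genes tested. They were Hspb1 (-1.47 ± 0.35), Hspa8 (-1.21 ± 0.35), Hsp90aa1 (-1.18 ± 0.29), Hsp90ab1 (-1.18 ± 0.32), Hspe1 (-1.05 ± 0.31), Hspd1 (-1.05 ± 0.30) and Dnajb1 (-1.02 ± 0.26), with adjusted p from edgeR between 0.00234 and 0.00866. On this scale Hspb1 stood at 99.3 and 185 CPM in WT total RNA and at 41.1 and 61.4 CPM in WT AGO2-IP, and Hspa8 at 663 and 1324 CPM in WT total RNA and at 360 and 501 CPM in WT AGO2-IP. The assays did not overlap in either gene. Without WT total RNA B, 2 of 10 chaperones passed (Hspa1a as higher and Hsp90aa1 as lower).

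The inducible HSP70 pair did not follow. Hspa1a stood at 0.475 and 0.551 CPM in WT total RNA and at 1.40 and 2.80 CPM in WT AGO2-IP, and it was the 1 chaperone called higher (2.004 ± 0.60, adjusted p from edgeR 0.00995), beside 35.7% of all genes tested. The call rests on 6 and 10 AGO2-IP counts. It was lost under DESeq2 (adjusted p 0.0594) and without WT AGO2-IP B, where the log2 fold change was 1.14. Hspa1b stood at 1.78 and 2.33 CPM in WT total RNA and at 2.33 and 5.61 CPM in WT AGO2-IP (0.93 ± 0.48, adjusted p from edgeR 0.119), and Hsph1 at 30.9 and 49.9 CPM and at 18.4 and 34.5 CPM (-0.62 ± 0.30, adjusted p from edgeR 0.0985), and neither passed. Together, Hspa1a and Hspa1b took 1.03% (95% Wilson interval 0.633 to 1.66) and 1.65% (1.16 to 2.35) of the counts on these genes and Hspa8 in WT AGO2-IP and 1.32% (0.800 to 2.16) and 0.697% (0.338 to 1.43) in miR-379KO AGO2-IP, in all 4 libraries more than in any total RNA library, although the interval of miR-379KO AGO2-IP B reaches down into the total RNA range.

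In miR-379KO cells 8 of 10 chaperones were at least 2-fold lower in AGO2-IP with an adjusted p under 0.05, beside 19.3% of all genes tested. The 8 included Hspb1 (-2.83 ± 0.37), Hsp90ab1 (-2.16 ± 0.33), Hspa8 (-2.15 ± 0.36), Dnajb1 (-2.08 ± 0.28) and Hspe1 (-1.85 ± 0.32), and the others were Hsp90aa1 (-1.83), Hspd1 (-1.72) and Hsph1 (-1.56), with adjusted p from edgeR between 4.67e-06 and 0.000345. Hspb1 was again the lowest, at 199 and 195 CPM in miR-379KO total RNA and at 36.4 and 19.1 CPM in miR-379KO AGO2-IP, with a wide gap between the assays. Hspa1a (-0.58 ± 0.68) and Hspa1b (-0.0051 ± 0.53) did not pass. The median over the 10 was -1.05 in WT and -1.84 in miR-379KO. The 2 contrasts have no library in common, but both came from 1 fit of all 8 libraries with shared scaling. Leaving out single miR-379KO libraries moved the WT median to between -1.08 and -1.285. Among genes averaging 1000 or more counts in total RNA the median was -0.45 in WT and -1.09 in miR-379KO, and 21.7% and 53.8% of them passed as lower, so the chaperones in that class, with medians of -1.12 and -1.97, lay below it in both genotypes. This position within the class was not tested.

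**Figure D4:**
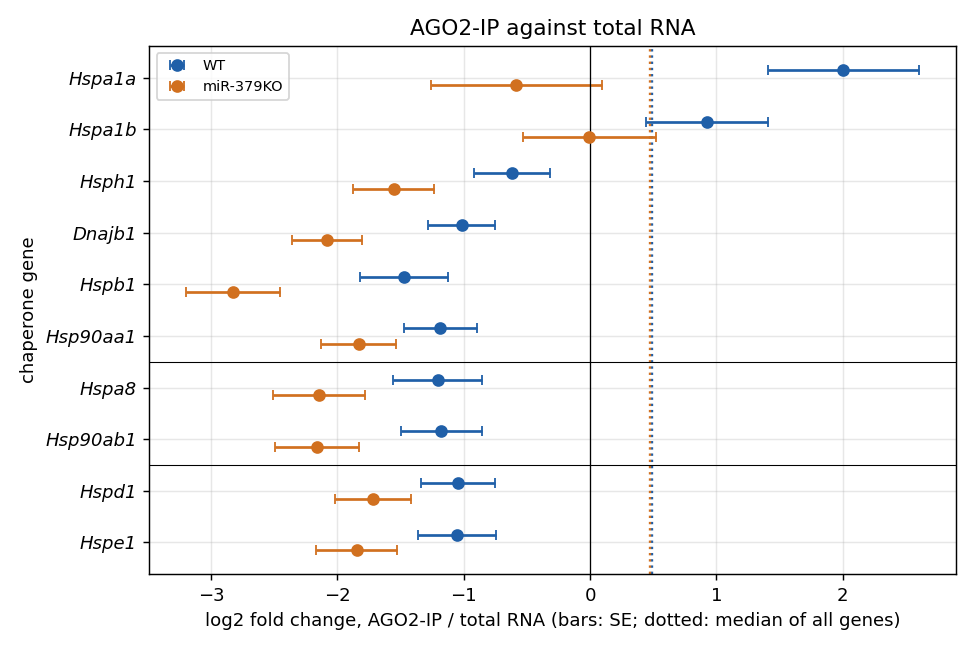
Log2 fold change of AGO2-IP against total RNA for each chaperone in WT (blue) and miR-379KO (orange), with standard errors, and dotted lines at the median over all genes tested (0.49 and 0.47). Apart from Hspa1a and Hspa1b, every chaperone lies below 0 in both genotypes and farther below in miR-379KO.

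Of the 70 other chaperone-system genes tested, 25 were lower and 5 higher in AGO2-IP than in total RNA in WT, and 44 were lower and 4 higher in miR-379KO. Of all genes tested, 7.33% were lower and 35.7% higher in WT, and 19.3% lower and 41.6% higher in miR-379KO. All 8 TRiC subunits were lower in both genotypes, with medians of -1.19 and -2.03. The genes furthest down in WT were the small heat shock proteins Cryab (-1.93 ± 0.37) and Hspb8 (-1.92 ± 0.26) and the HSP70 nucleotide exchange factor Bag1 (-1.55 ± 0.26). In miR-379KO they were Cryab (-3.24 ± 0.39), Bag1 (-2.74 ± 0.28) and Cdc37 (-2.70 ± 0.32). Those furthest up in both genotypes were Hsf5, Hsf2bp and Hspb7, each with at most 17 counts in any library. The HSF5 and HSF2BP proteins are known from germ cells and HSPB7 from heart muscle.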

How the data were processed

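Reads had been aligned by the authors to mm10 using TopHat (Bowtie2 2.1.0.1 per the labels) and counted on RefSeq genes with HTSeq 0.6.0, stranded, keeping reads placed with confidence. The deposited values are raw counts per gene, 1 column in each of 8 samples. Lines for reads not counted on a gene were left out of tests. Counts were scaled with TMM, and genes were kept with filterByExpr (minimum count 10). Tests were edgeR 4.0.16 quasi-likelihood F tests (robust), run on all genes of an assay for genotype and on all 8 libraries for interaction and assay contrasts. Calls used Benjamini-Hochberg adjusted p under 0.05, and at least 2-fold for assay contrasts. DESeq2 1.42.0 was an alternative. Standard errors are the log2 fold change divided by the root of F. The procedure was tested on simulated data. Exon lengths, sequences and coordinates came from RefSeq GRCm38.p6, where 98.7% of entries matched.

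The members and lists were chosen with earlier results of these data known. All 10 chaperones are named. From the other lists, at most 3 genes per direction and comparison past the threshold with the largest fold change are named, or, where none passed, the one with the smallest p. The 5 genes nearest the inducible profile are also named. Samples were not paired by replicate letter. Within an assay, the deviations of WT and miR-379KO libraries of the same letter correlated at r = -0.106 in total RNA and 0.0365 in AGO2-IP. Whether the AGO2-IP and total RNA libraries of a letter belong together was not tested. Replicates of each group differed by more than sampling noise.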

Additional observations from a re-analysis of the deposited data

How the results depend on the processing

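The number of chaperones past the adjusted threshold stayed at 0 in total RNA under every alternative, including the replicate block. In AGO2-IP, where it was 0 of 9, it was 2 with RLE size factors (32.2% of all genes passed), 3 of 10 with no filter on low counts (21.8%), 1 with the replicate block (Hspb1, 28.3%), 3 with a GC and length offset (26.3%), and 0 to 3 when single libraries were left out. TMM factors from genes averaging 50 counts in total RNA moved the median of all genes to 0.20 and that of the chaperones to -0.27. For the interaction the number was 1 with the GC and length offset (Hsp90aa1, 4.6% of all genes). It was also 1 with a block for libraries of the same genotype and letter (Hspb1, 6.36% of all genes, chosen after seeing the data). That block assumes that the AGO2-IP and total RNA libraries of a letter belong together, which the labels do not state. For AGO2-IP against total RNA in WT the 8 became 9 with the GC and length offset, 7 with DESeq2, 5 with those TMM factors, 4 with a mean of 50 counts required, and 2 to 8 leaving out single libraries. In miR-379KO it stayed at 8. The cause of these shifts was not tested.

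Signs turned only in values that passed no threshold. In total RNA, the GC and length offset gave 0.0067 for Hsp90aa1 and -0.025 for Hspe1, and a fit with all 8 libraries gave 0.045 for Hspa1b, 0.043 for Hsp90aa1 and 0.023 for Hspd1. Leaving out single libraries, the total RNA log2 fold change ran from -0.0997 to 0.083 for Hspa1b, -0.17 to 0.32 for Hsph1, -0.19 to 0.15 for Hsp90aa1, -0.046 to 0.75 for Hspa8, -0.23 to 0.17 for Hspd1 and -0.17 to 0.52 for Hspe1. The interaction ran from -1.31 to 0.071 for Hspa1b and from -0.85 to 0.071 for Hspd1, and AGO2-IP against total RNA for Hspa1b from -0.11 to 1.21 in WT and from -0.62 to 0.42 in miR-379KO. The last value of Hspa1b was also 0.18 with DESeq2 and with RLE factors, 0.46 with the TMM factors from genes averaging 50 counts, 0.51 with a mean of 50 counts and 0.00022 with the replicate block. The block changed no other call. Of all alternatives for single chaperones, 644 kept direction and side of the threshold, 23 passed it newly and 15 lost it.

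The labels do not say what the letters share, and crossing them between genotypes in total RNA (chosen after seeing the data) called 1 gene and no chaperone. Depth limits Hspa1a and Hspa1b most, with 2 to 20 counts in each AGO2-IP library.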
